A study of Rattus norvegicus with 24 samples.

Results

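miR-146a, miR-146b and miR-155 were followed in the injured rat brain, in all rows of the deposited count tables that carry these names. Of 728 miRNA rows in each table, 6 matched: the 5p and the 3p arm of each of the 3 hairpins. The guide arms are rno-miR-146a-5p, rno-miR-146b-5p and rno-miR-155-5p, called below without the species prefix. Those of miR-146a and miR-155 were taken up because they had differed between injured and sham-operated rats in the thalamus in an earlier analysis of these same libraries. Their thalamic injury values are therefore given as a description, without a test. miR-146b was taken up as the sequence relative of miR-146a.

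The small RNA came from adult Sprague-Dawley rats 3 months after surgery. Traumatic brain injury (TBI) was made by lateral fluid percussion, in which a pressure pulse is applied to the exposed dura, and the control rats were sham-operated. The 6 TBI rats and 6 sham rats each gave 1 library from the perilesional cortex and 1 from the ipsilateral thalamus, so the 4 groups held 24 libraries of 12 rats. The TBI rats had been selected by the study for imaging signs of chronic inflammation around the lesion, and stand for such rats rather than for injury in general.

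A miRNA is cut from a hairpin, and the strand loaded into the silencing complex recognises messenger RNAs mainly through its seed, bases 2 to 8 from the 5′ end. Transcription of miR-146a and miR-155 is induced by Toll-like receptor and NF-κB signalling in immune cells and in glia. miR-146a represses the adaptor TRAF6 and the kinase IRAK1, which act in that same signalling, and miR-155 is processed from the BIC transcript, the product of Mir155hg. miR-146b is encoded by a separate gene and shares its seed with miR-146a.

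The mature sequences of all 6 arms were found in RefSeq (build GRCr8) and are shown here, 5′ to 3′ with the seed in capitals, because the comparison between the miR-146 relatives turns on them. The reads had been mapped to another build, so the positions given below serve only to place the genes.

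miR-146a-5p: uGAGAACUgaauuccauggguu
miR-146b-5p: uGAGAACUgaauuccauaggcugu
miR-155-5p: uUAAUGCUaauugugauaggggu
miR-146a-3p: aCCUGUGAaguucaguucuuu
miR-146b-3p: cCUAGGGAcucaguucuggug
miR-155-3p: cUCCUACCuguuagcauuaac

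The first 17 bases of miR-146a-5p and miR-146b-5p were identical. Of 22 bases compared from the 5′ end, 20 were identical, the exceptions being G18A and U21C (miR-146a base, position from 1 at the 5′ end, miR-146b base), and miR-146b-5p was longer by 2 bases at its 3′ end. Both relatives thus had the seed GAGAACU, which no other rat miRNA in that table had. No other entry had the seed of miR-155-5p or of any of the 3p arms. A read that ends before base 18 cannot be told between the relatives, and how such reads were assigned is not given in the sources used here. miR-146a-5p lay on the minus strand of chromosome 10 at 28350053 to 28350074, miR-146b-5p on the plus strand of chromosome 1 at 255144874 to 255144897, and miR-155-5p on the plus strand of chromosome 11 at 37261117 to 37261139.

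Levels below are normalised read counts in CPM, reads per 1000000 miRNA reads of a library after scaling by trimmed means of M-values (TMM) over all 24 libraries. How reads relate to molecules of each miRNA was not measured, so ranks and shares between miRNAs are those of reads. Libraries held 744564 to 4069284 miRNA reads in cortex and 523298 to 4139901 in thalamus. The limit that a count of 0 allows, for counting error only, is 3 reads. Before TMM scaling these amount to 4.03 and 5.73 CPM in the shallowest library of each region. After scaling, 3 reads were 4.67 CPM in that cortex library, of sham rat 50. The factor of that thalamus library, 0.854, likewise raises its limit. The neuronal miR-128-3p was the most abundant miRNA in all 4 groups, and the neural miR-9a-5p ranked 2 or 3. The thalamus library of sham rat 55, the shallowest of all, stood apart: miR-128-3p reached 241427 CPM there against at most 123657 CPM in the other sham thalamus libraries. Its summed oligodendrocyte miRNAs, 17584 CPM, were also the highest of the thalamus libraries, the others running from 10134 to 14290 CPM, and lay far above sham cortex at 3584 to 4320 CPM. The thalamic values of the guide arms that it moves most are given with and without it.

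The 3 guide arms had very different levels. miR-146b-5p (rno-miR-146b-5p in the tables) was the most abundant, ranking 32 among all miRNAs by mean CPM in sham cortex, 35 in TBI cortex, 43 in sham thalamus and 47 in TBI thalamus. miR-146a-5p (rno-miR-146a-5p) ranked 131, 107, 139 and 101 in the same groups, and miR-155-5p (rno-miR-155-5p) 382, 366, 397 and 349. In bulk tissue, more cells that carry a miRNA and more of it per cell cannot be told apart.

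In the perilesional cortex, miR-146b-5p was lower in TBI, whereas miR-146a-5p and miR-155-5p had higher means in TBI that did not pass the test. These cortical libraries had no part in the choice of the miRNAs, although they come from the same rats. For miR-146b-5p the sham rats ran from 5719 CPM through a median of 7407 to 9231 CPM, and the TBI rats from 4485 through 5014 to 5868 CPM. Of the TBI rats, 5 of 6 lay below every sham rat, and TBI rat 22 overlapped with sham rat 55, the lowest of the shams. Sham rats averaged 7346 ± 1240 CPM (SD, n = 6), and TBI rats 5112 ± 568 CPM (SD, n = 6). The fitted log2 fold change of TBI over sham was -0.48 (SE 0.13), and it passed (adjusted p = 0.0355 in edgeR's quasi-likelihood test with Benjamini-Hochberg adjustment over 371 miRNAs). In that comparison 5.93% of all miRNAs tested passed, and 2.96% of all tested passed as lower. Of the 4 rows tested here 1 passed. The call was not stable: the log2 fold change was -0.26 with library sizes alone (adjusted p = 0.106, edgeR) and -0.60 to -0.40 on leaving out each rat in turn, past the threshold in 5 of 12 such fits. No higher level of miR-146b-5p with injury was seen in cortex, and whether inflammation induces it was not tested.

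miR-146a-5p in cortex ran from 189 CPM in sham rat 32 through a median of 351 to 572 CPM in sham rat 55, and from 421 CPM in TBI rat 52 through 550 to 777 CPM in TBI rat 56. The groups overlapped, with 3 of 6 TBI rats above every sham rat. Sham rats averaged 358 ± 139 CPM (SD, n = 6), and TBI rats 568 ± 136 CPM (SD, n = 6). The log2 fold change, 0.72 (SE 0.25), did not pass (adjusted p = 0.106 in edgeR, and from 0.0513 to 0.252 over the alternatives).

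miR-155-5p was near the limit of detection in cortex. The 6 sham libraries held 3 to 12 reads each and the TBI libraries 2 to 24. In CPM the sham rats ran from 1.82 through 3.77 to 9.86, and the TBI rats from 2.87 through 6.69 to 9.95. Only 1 TBI rat lay above every sham rat, since sham rat 55 was at 9.86 CPM and the next sham rat at 4.67 CPM. Means were 6.91 ± 2.68 CPM (SD, n = 6) in TBI against 4.54 ± 2.78 CPM (SD, n = 6) in sham. The log2 fold change, 0.84 (SE 0.37), missed the threshold (adjusted p = 0.196 in edgeR), and it did not pass under any alternative that gave an adjusted p.

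**Figure D1:**
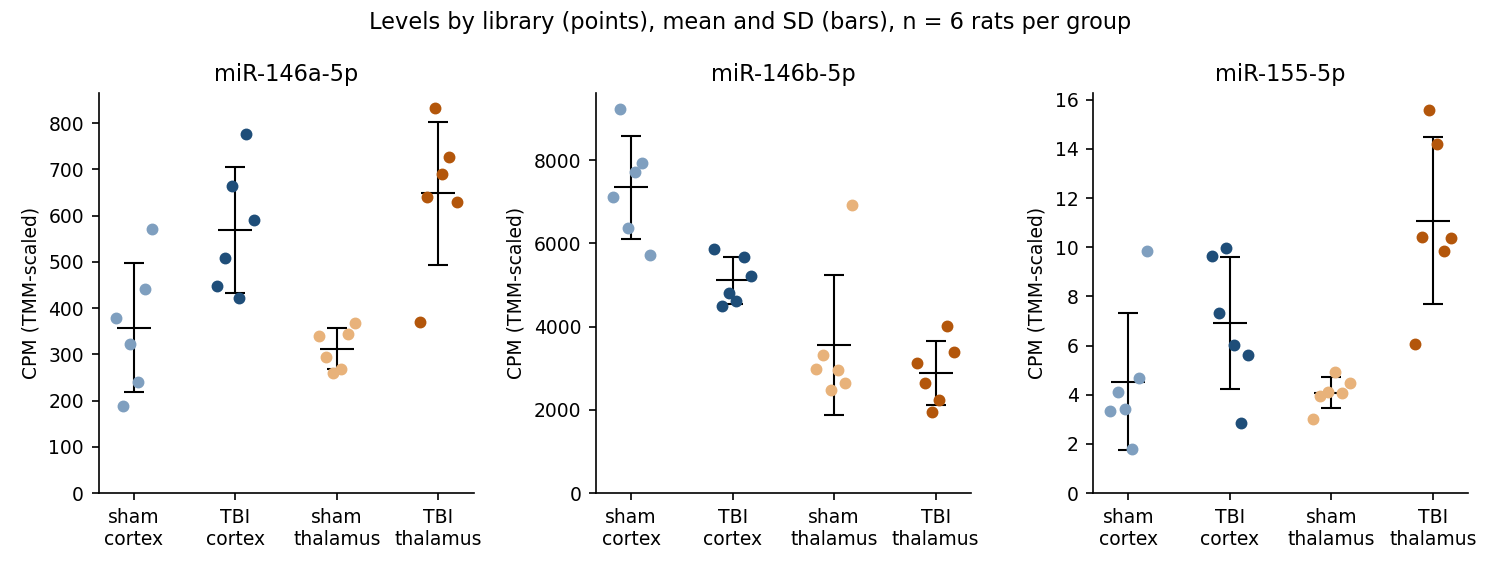
Normalised read counts (CPM, linear axes from 0) of the 3 guide arms in each library (points, 6 rats per group), with group means and SD (bars). In thalamus the TBI rats lie above every sham rat for miR-155-5p and miR-146a-5p, and in cortex 5 of 6 TBI rats lie below every sham rat for miR-146b-5p.

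In the ipsilateral thalamus, the contrast on which miR-146a-5p and miR-155-5p were chosen, both had higher levels in TBI and miR-146b-5p did not share that pattern. miR-146a-5p was at 341, 294, 260, 269, 344 and 367 CPM in sham rats 26, 32, 34, 38, 50 and 55, and at 369, 640, 832, 691, 728 and 629 CPM in TBI rats 22, 24, 45, 52, 56 and 63. The groups did not overlap, though TBI rat 22 was only just above sham rat 55. Sham rats averaged 312 ± 44.4 CPM (SD, n = 6), and TBI rats 648 ± 155.03 CPM (SD, n = 6). The log2 fold change was 1.04 (SE 0.20).

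miR-155-5p in thalamus was at 3.01, 3.96, 4.13, 4.92, 4.07 and 4.48 CPM in the sham rats, and at 6.07, 10.4, 15.6, 14.2, 9.83 and 10.4 CPM in the TBI rats, in the same order of rats. These values rest on 2 to 20 reads per sham library and 5 to 64 reads per TBI library. Again TBI rat 22 was the lowest and TBI rat 45 the highest, and the groups did not overlap. Sham rats averaged 4.09 ± 0.637 CPM (SD, n = 6), and TBI rats 11.1 ± 3.39 CPM (SD, n = 6). On the log2 scale the fitted difference was 1.45 (SE 0.26). Over all 390 miRNAs in this contrast 0.513% were called, and 1.03% had every TBI rat above every sham rat, which is background to a choice made on this contrast and no support for it.

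miR-146b-5p in thalamus was at 2972, 3316, 2474, 2962, 2652 and 6925 CPM in the sham rats, and at 3137, 2642, 1940, 2248, 4026 and 3379 CPM in the TBI rats, in the same order. The groups overlapped, and sham rat 55 lay above all other rats. The log2 fold change was -0.30 (SE 0.28) with that library and 0.08 (SE 0.20) without it, so its direction rested on 1 library. Without sham rat 55 the values were 1.18 (SE 0.21) for miR-146a-5p and 1.55 (SE 0.28) for miR-155-5p.

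**Figure D2:**
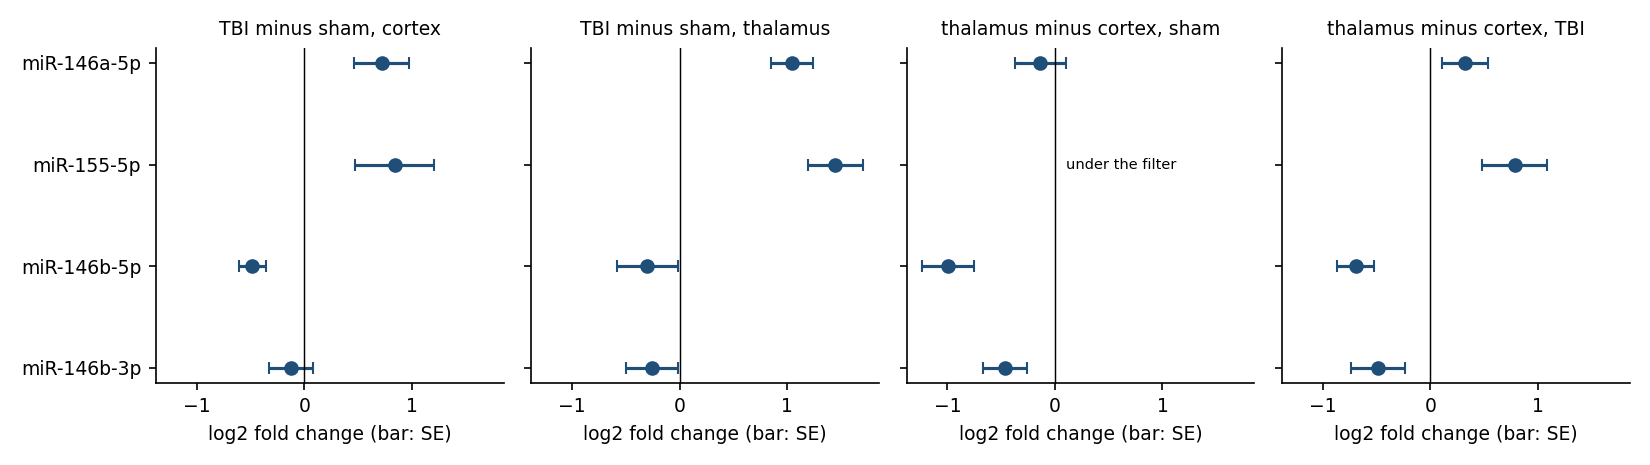
Log2 fold changes (points) with their SE (bars) for the 4 rows that passed the filter on low counts, in 4 contrasts of 12 libraries each. miR-146a-5p and miR-155-5p lie above 0 in both TBI contrasts and miR-146b-5p below 0 in all 4, although its thalamic TBI value turns to 0.08 without sham rat 55, and miR-155-5p was under the filter in the sham rats.

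The response to injury was not shown to differ between regions for any miRNA. The injury effect in thalamus minus that in cortex, as a log2 difference over all 24 libraries, was 0.38 (SE 0.32) for miR-146a-5p, 0.65 (SE 0.46) for miR-155-5p and 0.23 (SE 0.30) for miR-146b-5p. Without the thalamus library of sham rat 55 the last was 0.50 (SE 0.23), and the others 0.37 (SE 0.31) and 0.61 (SE 0.45). These are descriptions, since the thalamic side chose the miRNAs. Of 407 miRNAs none passed in the main edgeR interaction fit, and 17 had an unadjusted p under 0.05. Without the thalamus library of sham rat 55 these were 0 of 411 and 41.

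The proportion of the 2 seed relatives changed with injury in cortex. Within a library, miR-146b-5p gave 18.7, 48.7, 19.8, 32.02, 18.0 and 10.0 reads per miR-146a-5p read in the cortex of sham rats 26, 32, 34, 38, 50 and 55, and 13.1, 8.81, 7.25, 11.0, 7.30 and 8.84 reads in TBI rats 22, 24, 45, 52, 56 and 63. All sham rats but rat 55 lay above every TBI rat. The log2 ratio of miR-146a-5p to miR-146b-5p was higher in TBI by 1.24 (two-sided exact permutation test, p = 0.0065, and 0.0195 after Benjamini-Hochberg adjustment over 3 tests, n = 6 and 6), and 4 of 6 TBI rats lay above every sham rat. On leaving out each rat in turn the difference was 1.01 to 1.47, with p between 0.0043 and 0.013 (exact permutation tests). Such a ratio needs no scaling between libraries, and its miR-146b-5p part is the lower level described above.

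In thalamus the ratio was 7.70 to 18.9 miR-146b-5p reads per miR-146a-5p read in sham (median 10.3) and 2.33 to 8.49 in TBI (median 4.75). The log2 difference was 1.26, and 1.10 without sham rat 55, given as a description. The lowest ratio of all 24 libraries, 2.33, was that of TBI rat 45, which also had the highest thalamic miR-146a-5p.

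**Figure D3:**
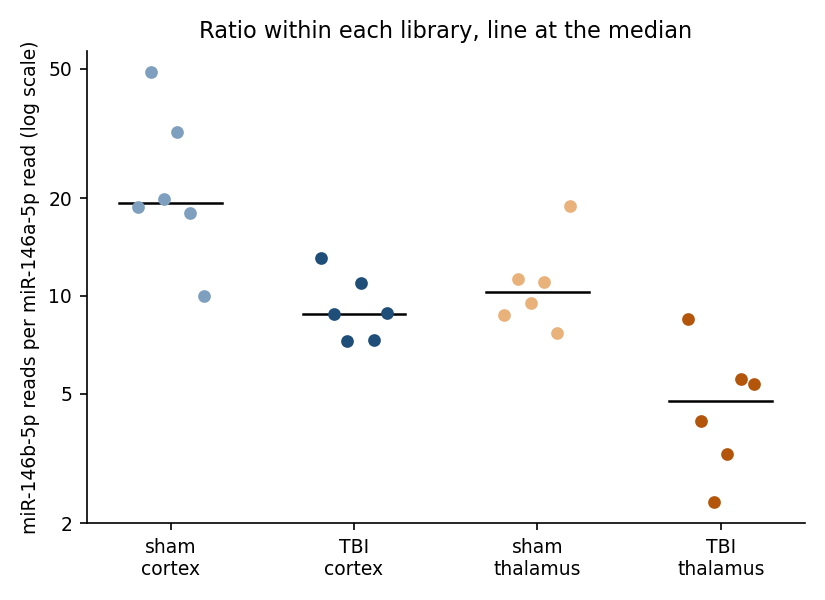
Reads of miR-146b-5p per read of miR-146a-5p in each library (log axis, points, 6 rats per group, line at the median). The medians were 19.3 in sham cortex, 8.82 in TBI cortex, 10.3 in sham thalamus and 4.75 in TBI thalamus.

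Summed over both relatives, reads with the shared seed came to 7703 ± 1143 CPM (SD, n = 6) in sham cortex and 5680 ± 620 CPM (SD, n = 6) in TBI cortex. The size of that difference depended on the scaling. With library sizes alone, miR-146b-5p averaged 6023 CPM in sham cortex and 5027 CPM in TBI cortex, and miR-146a-5p 305 and 558 CPM. In thalamus the sum was 3863 ± 1706 CPM (SD, n = 6) in sham and 3544 ± 736 CPM (SD, n = 6) in TBI. Without sham rat 55 the sham sum was 3177 ± 331 CPM (SD, n = 5), below that of TBI, so the order of the thalamic means rested on that library. miR-146a-5p made up 4.88% ± 2.43 (SD, n = 6) of that sum in sham cortex, 10.0% ± 2.00 in TBI cortex, 8.79% ± 2.23 in sham thalamus (9.55% ± 1.40 without rat 55, n = 5) and 19.1% ± 6.90 in TBI thalamus. miR-146b-5p thus gave most of the reads with this seed in each library, and the highest share of miR-146a-5p was 30.0%. These are shares of reads, and shares of molecules were not measured.

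The regions were then compared within the sham and within the TBI rats. In sham rats, miR-146b-5p was lower in thalamus than in cortex, at -0.99 on the log2 scale (SE 0.24, edgeR over 375 miRNAs, adjusted p = 0.0060). In that contrast 23.7% of all miRNAs tested passed, and 10.9% of all tested passed as lower in thalamus. The sham thalamus libraries had also been one side of the contrast that chose the miRNAs. The level was lower in thalamus in 5 of 6 sham rats, the exception being rat 55, and without that rat the log2 fold change was -1.43 (SE 0.15). miR-146a-5p differed by -0.14 (SE 0.24, adjusted p = 0.705 in edgeR), and by 0.19 with library sizes alone. The difference between the regional effects of the relatives was not tested. miR-155-5p was under the filter on low counts there, and without the filter it differed by 0.03 (SE 0.36).

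In TBI rats, miR-146b-5p was lower in thalamus than in cortex in 6 of 6 rats, as were 18.9% of all miRNAs tested, with a log2 fold change of -0.70 (SE 0.17). miR-155-5p was higher in thalamus in 5 of 6 TBI rats, TBI rat 22 being the exception, and its log2 fold change was 0.78 (SE 0.30). miR-146a-5p was higher in thalamus in 4 of 6 TBI rats, with 0.32 (SE 0.21). With the rat as a block these log2 fold changes were -0.73 (SE 0.12) for miR-146b-5p, 0.71 (SE 0.30) for miR-155-5p and 0.31 (SE 0.15) for miR-146a-5p. In sham rats miR-155-5p and miR-146a-5p were each higher in thalamus in 2 of 6 rats. For miR-155-5p those values rest on 3 to 12 reads per cortex library and 2 to 20 per thalamus library. The share of all miRNAs with such counts of rats was not taken, and the counts were not tested against each other. These TBI values are descriptions, because the TBI thalamus libraries chose the miRNAs.

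**Figure D4:**
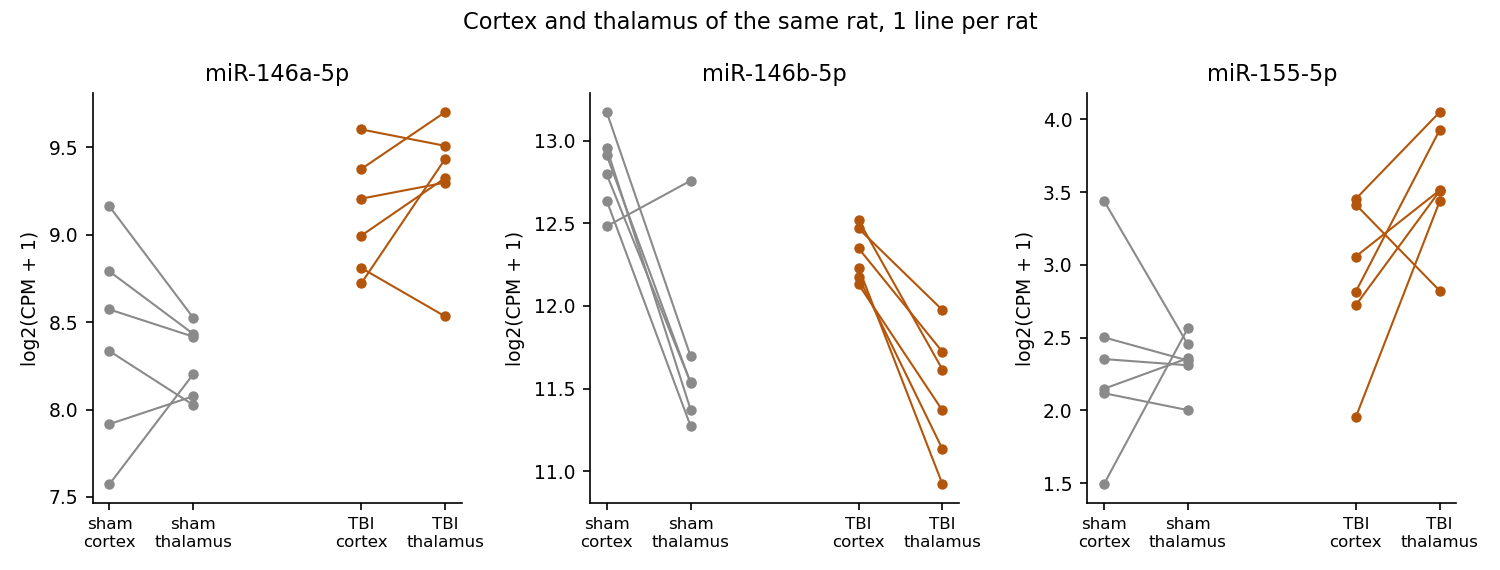
Levels of the 3 guide arms, as log2(CPM + 1), in cortex and thalamus of the same rat (1 line per rat, 6 sham and 6 TBI rats). The lines of miR-146b-5p fall towards thalamus in all rats but sham rat 55, and those of miR-155-5p rise in 5 of 6 TBI rats.

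A rat with a high cortical level was not shown to have a high thalamic level. Over 6 relations of cortex with thalamus, on log2(CPM + 1) and within groups of 6 rats, none passed. For miR-146a-5p, Pearson's r was 0.75 in sham (rho 0.77, exact permutation p = 0.104 and 0.103, adjusted p = 0.338 and 0.594) and 0.56 in TBI (rho 0.54, exact permutation p = 0.244 and 0.297, adjusted p = 0.489 and 0.594). Without the 2 rats farthest from the cortical median these were 0.82 and 0.91. For miR-146b-5p r was 0.73 in TBI and -0.51 in sham, and the latter became 0.51 without the 2 farthest rats.

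Among 12 relations between miRNAs within a group none passed either. miR-146a-5p and miR-155-5p in TBI thalamus had the highest r, 0.90 (exact permutation p = 0.0236, adjusted p = 0.283, n = 6), with rho 0.66 (exact permutation p = 0.175, adjusted p = 0.58). Without the 2 rats farthest from the median r was 0.14, so the relation rested on TBI rats 22 and 45.

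The passenger strands were rare. The 5p arm made up between 99.5% and 99.7% of the pooled miR-146a reads of each group, and between 99.5% and 99.7% of the miR-146b reads. miR-146a-3p had 8, 20, 22 and 31 reads in all in sham cortex, TBI cortex, sham thalamus and TBI thalamus. miR-155-3p had 1 read in all 24 libraries, in TBI rat 45, against 168 reads of miR-155-5p in that group. Neither passed the filter on low counts in any contrast.

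miR-146b-3p was measurable, at 21.9 ± 2.36 CPM (SD, n = 6) in sham cortex, 19.4 ± 4.44 in TBI cortex, 15.9 ± 3.96 in sham thalamus and 12.7 ± 3.20 in TBI thalamus. It was lower in thalamus in 6 of 6 sham and 6 of 6 TBI rats, as were 13.6% and 18.9% of all miRNAs tested, but the sham difference of -0.47 (SE 0.21) did not pass (adjusted p = 0.114 in edgeR). In cortex its TBI effect was -0.12 (SE 0.20, adjusted p = 0.784 in edgeR), with a sign that turned with library sizes alone, to 0.10. The share of the 3p arm did not pass in cortex for miR-146b (exact permutation test, p = 0.188, adjusted p = 0.282) or miR-146a (exact permutation test, p = 0.392, adjusted p = 0.392).

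The miRNAs whose levels ran most alike with each guide arm differed between the relatives. Across 24 libraries on log2(CPM + 1), miR-146b-5p followed miR-128-3p with r = 0.98, then miR-212-5p and miR-708-3p (0.93 each), miR-873-5p (0.92) and miR-132-5p (0.89). These points share group means, scaling factors and rats, and miR-128-3p alone makes up a large part of each library. After subtraction of the group means r with miR-128-3p was still 0.93, and with library sizes alone it was 0.95. The thalamus library of sham rat 55 lay with the cortex libraries on this relation and not off it, and r was 0.98 without it. In cortex the TBI effect on miR-128-3p was -0.75 (SE 0.16, adjusted p = 0.0240 in edgeR).

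miR-146a-5p ran most alike with miR-92a-3p (r = 0.83), let-7b-5p (0.76), miR-92b-3p (0.75), miR-320-3p (0.71) and miR-155-5p (0.71), and its r with miR-146b-5p was -0.28. miR-155-5p ran most alike with miR-17-5p (0.71), miR-146a-5p (0.71), miR-150-5p (0.66), miR-140-3p (0.62) and miR-181a-2-3p (0.62). After subtraction of the group means, r of miR-146a-5p with miR-92a-3p was 0.83, but with miR-155-5p it was 0.39.

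**Figure D5:**
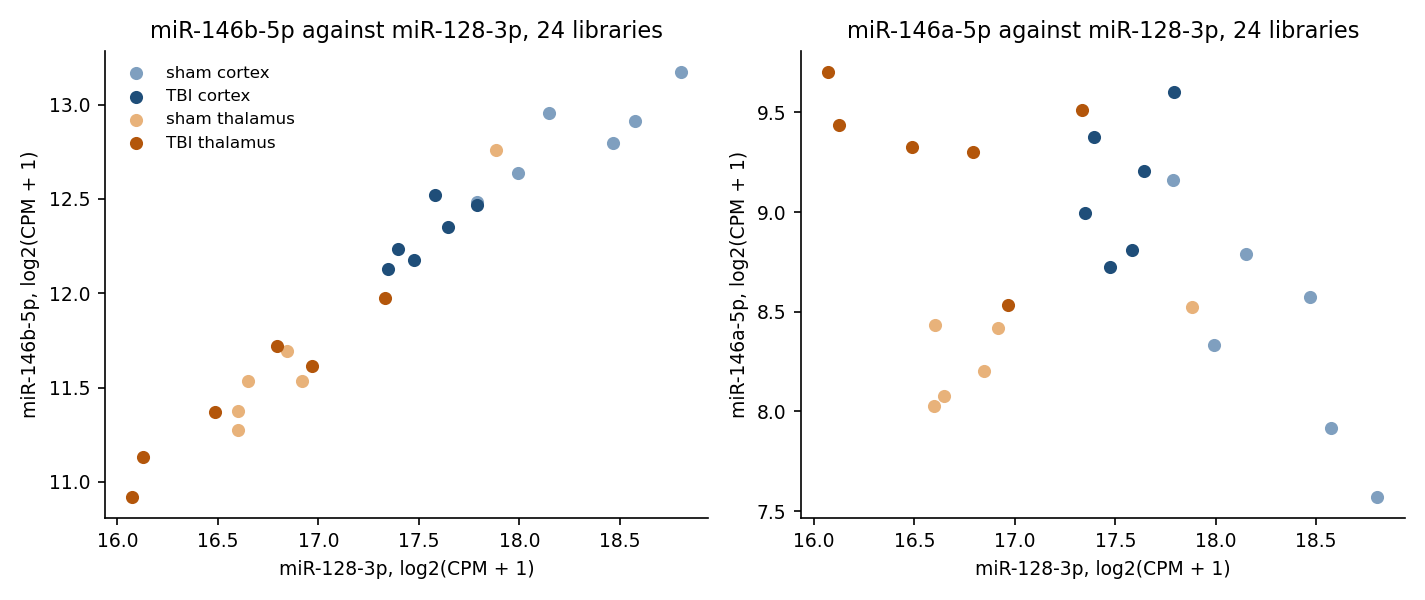
Levels of miR-146b-5p (left) and miR-146a-5p (right) against miR-128-3p, all as log2(CPM + 1), 1 point per library and 24 libraries, coloured by group. miR-146b-5p lies close to a line through all 4 groups (r = 0.98), and miR-146a-5p does not.

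Of 13 other miRNAs known to respond to Toll-like receptor or NF-κB signalling, 12 were tested in each region. The list was not split by the expected direction of response, so its counts and medians do not measure such signalling. In cortex none passed as higher and 1 passed as lower, beside 2.96% of all miRNAs in each direction. The lower one was miR-132-3p at -0.55 (SE 0.15, adjusted p = 0.0355 in edgeR). The median log2 fold change of the list was 0.04, beside 0.05 over all miRNAs tested. miR-125b-5p was at 0.45 (SE 0.13, adjusted p = 0.053 in edgeR), and miR-221-3p and miR-187-3p at 0.44 each. In thalamus none passed in either direction, beside 0.513% of all miRNAs, with a median of -0.09 beside -0.03 over all.

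Of the leukocyte, macrophage and microglia miRNAs, 6 of 8 were tested in cortex and 5 in thalamus. None passed, beside 5.93% of all miRNAs in cortex and 0.513% in thalamus. Their cortical log2 fold changes were all above 0, from 0.30 to 1.05 (median 0.50). Over all miRNAs tested in cortex the median was 0.05, and 42.6% lay below 0. The myeloid miR-223-3p was at 1.05 (SE 0.31, adjusted p = 0.0584 in edgeR). In thalamus the listed miRNAs ran from 0.27 to 1.01 (median 0.48), beside a median of -0.03 and 52.8% below 0 over all. There miR-142-5p, a miRNA of blood-derived cells and microglia, was at 1.01 (SE 0.28, adjusted p = 0.224 in edgeR). The summed level of the list was 979 to 1629 CPM in sham cortex, 1087 to 2373 in TBI cortex, 1001 to 1590 in sham thalamus and 1271 to 2365 in TBI thalamus, and no member was at 0 throughout a group. miR-150-5p made up most of this sum, with means of 1293 CPM in TBI cortex and 1282 CPM in TBI thalamus. In TBI cortex miR-142-3p, miR-142-5p and miR-223-3p had means of 25.0, 63.5 and 10.8 CPM. The sum therefore mostly follows miR-150-5p. Within TBI cortex, rat 52 had the highest sum (2373 CPM) and the lowest miR-146a-5p (421 CPM), and rat 56 the lowest sum (1087 CPM) and the highest miR-146a-5p (777 CPM). In TBI thalamus rat 45 had both the highest sum (2365 CPM) and the highest miR-146a-5p (832 CPM). Rat 56 had the lowest sum there (1271 CPM) with miR-146a-5p at 728 CPM. The lowest thalamic miR-146a-5p of the TBI rats, 369 CPM in rat 22, went with a sum of 1338 CPM. These are values of single rats. Neither the relation of the sum to miR-146a-5p over the rats nor the part of such cells in the results was tested.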

How the data were processed

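The authors trimmed adapters, mapped reads to RGSC3.4 with miRBase annotation and deposited whole read counts per miRNA, 1 table per region. The mapping program is not given in the sources used here. The deposited CPM tables were not used. Groups and rat numbers came from sample titles. miRNA rows were kept by filterByExpr, scaled by TMM and tested with edgeR (version 4.0.16, R 4.3.3; quasi-likelihood, robust prior, adjusted p threshold 0.05). The SE was the size of a log2 fold change over the root of its F statistic. Levels and correlations used a pseudocount of 1 CPM. Exact permutation tests used scipy 1.17.1. The 6 rows, the lists and the tests were chosen with earlier results of these data known. From each list, the largest changes and the most abundant members could be named, and for each guide arm the 5 miRNAs most alike.

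Libraries with the same rat number came from 1 animal. Deviations from group means correlated between them with a median r of 0.38 (range -0.18 to 0.64, 12 rats). Libraries of a group were not duplicates (chi-square per degree of freedom at least 31.4). Alternatives were other scalings (including the 4 reference miRNAs of the study), no filter, DESeq2 (version 1.42.0), a fit of all libraries, the rat as a block and leaving out single rats. The fit was tested on simulated counts.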

Additional observations from a re-analysis of the deposited data

Results flagged for a closer look

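In groups of 6, a highest or lowest value far from its neighbour was looked for in 27 groups, and 2 were found where chance gives about 1.35. Both belong to sham rat 55. In sham thalamus its miR-146b-5p level was 6925 CPM and the next highest 3316 CPM, a gap of 0.811 of the range. In sham cortex its miR-155-5p level was 9.86 CPM, from 8 reads, and the next highest 4.67 CPM, a gap of 0.646 of the range.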

How the results depend on the processing

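In cortex, 22 miRNAs passed in the main fit (11 higher, 11 lower), 39 with library sizes alone (36 higher, 3 lower, with the median of all log2 fold changes moved by 0.20), 1 with scaling by reference miRNAs, 41 with DESeq2, 5 with all 24 libraries in 1 fit and 4 to 30 when single rats were left out. miR-146b-5p kept its direction but not the call in cortex at -0.26 with library sizes alone, -0.52 with reference miRNAs and -0.52 with all 24 libraries, and ran from -0.60 to -0.40 without single rats. The count in thalamus, 2, was 0 with reference miRNAs, 5 with all 24 libraries and 0 to 2 without single rats. Between regions in sham rats 89 passed, 147 with library sizes alone (median moved by 0.37) and 63 to 126 without single rats, and miR-146a-5p reversed to 0.19 with library sizes alone. With the rat as a replicate block 80 passed in sham rats, with miR-146b-5p at -1.09, and 152 in TBI rats, against 80 without the block, which ran from 58 to 88 without single rats. The block changed no call of a guide arm between regions in sham rats. With library sizes alone, r of miR-155-5p between regions was -0.53 in sham and 0.20 in TBI, r of miR-146a-5p with miR-146b-5p was -0.078 in TBI cortex and -0.34 in sham thalamus, and r of miR-146b-5p with miR-155-5p in sham thalamus was -0.30. With a pseudocount of 0.5 CPM, r of miR-155-5p between regions in sham was -0.0066. These 5 relations changed sign and passed under no setting. The causes were not tested. A fit without the robust prior was added after the data were seen and changed no call of a guide arm in the tested contrasts. Depth limits miR-155-5p, with 2 to 64 reads per library, and the 3p arms of miR-146a, with 0 to 13, and miR-155, with 1 in all.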

Other observations

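Cell-type lists gave values beside these results. All 3 oligodendrocyte miRNAs were higher in thalamus than in cortex in sham rats (median log2 fold change 1.75). In that contrast 12.8% of all miRNAs passed as higher. None of the 3 passed with injury, where 5.93% of all miRNAs passed in cortex and 0.513% in thalamus. Of 5 neuronal miRNAs 1 was lower in TBI cortex, miR-128-3p, where 2.96% of all miRNAs passed as lower. Their cortical log2 fold changes ran from -0.75 to 0.15 (median -0.07, beside 0.05 over all). None passed in thalamus, where 0.513% of all passed. All were below 0 there, from -0.61 to -0.15 (median -0.36), beside a median of -0.03 and 52.8% below 0 over all. Of 6 red cell and vascular miRNAs 4 were tested, and none passed in either region, beside 5.93% and 0.513% of all. Their medians were -0.003 in cortex and 0.11 in thalamus, beside 0.05 and -0.03 over all miRNAs tested. The 4 reference miRNAs of the study lay between 0.03 and 0.07 (log2 fold change) in cortex and between 0.01 and 0.04 in thalamus. The study had picked them as PCR controls from these same sequencing data. Their small changes here are therefore no independent check of the scaling.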
